A study of Bos taurus with 12 samples.

Results

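STAG3, SPC24, SMC1A and SMC3 are 4 genes that help hold sister chromatids together or attach chromosomes to the spindle. They are 4 of the 9155 genes named on the bovine array, and were measured with 6 of its 24016 probe sets other than controls, 3 for STAG3 and 1 for each of the others. A filter on dim signals, set at a mean of 5.57 on the log2 scale, was passed by 4 of these 6 probe sets and 3 of the 4 genes. The dimmest to pass had a mean of 6.50 (the second STAG3 probe set), and the 2 that did not pass had means of 4.36 (the third STAG3 probe set) and 4.22 (SMC1A). A probe set belonged here if the array annotation gave it 1 of these symbols alone. STAG3 and SPC24 were chosen by their lower signals at metaphase II (MII) than at the germinal vesicle (GV) stage in an earlier look at these same arrays. The values that chose them, the changes with maturation, are therefore given as a description for all 4 genes, with no test. The comparison between ages did not enter that choice and was tested.

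Cohesin is a ring of 2 long SMC proteins, closed by a kleisin subunit, with a STAG protein bound to it. SMC3 is in every cohesin ring. SMC1A pairs with it in body cells, and meiotic cells add rings with STAG3, a STAG protein of meiosis. In mouse oocytes the meiotic rings are loaded before birth and must last until the meiotic divisions, when separase opens them in steps. SPC24 is part of the NDC80 complex of the outer kinetochore, which grips microtubule ends and anchors to the centromere through its SPC24 and SPC25 end. At the GV stage the oocyte is arrested in prophase of meiosis I, with little transcription late in growth, and it reaches MII after the first division, with a spindle formed and sister chromatids still joined at their centromeres.

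The study compared oocytes of adult cows and prepubertal heifers of Japanese Black cattle, with 3 arrays in each of 4 groups. GV oocytes, adult or prepubertal, were taken straight from follicles of 2 to 8 mm. MII oocytes of either age had been matured in vitro for 20 to 22 h and were picked by an extruded polar body. The adult ovaries came from an abattoir and those of the heifers, aged 9 to 12 months, were removed surgically on farms, so age of the donor and origin of the ovary cannot be told apart. Each array held amplified RNA of 50 pooled oocytes stripped of cumulus cells. The 3 pools of a group are described as biological replicates, with no donor or day named, so p-values measure the spread between pools. The arrays were scaled to about the same mean, so a lower signal is a smaller share on its array. Neither the number of oocytes in a pool nor the RNA per oocyte can be read from it.

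Oocyte markers were high on 9 of the 12 arrays and low on 3. The median of 9 oocyte marker genes, among them GDF9, BMP15 and ZP2, exceeded the median signal of its array by 5.49 to 8.31 on the log2 scale on the 9 arrays. It lay at -0.55 on GV prepubertal replicate 1, 0.03 on MII prepubertal replicate 1 and 0.76 on GV adult replicate 1. The oocyte label is thus not borne out by its markers on these 3 arrays, and results are given with all 12 arrays and with the 9. On the 2 prepubertal arrays, 19 and 17 of 20 cumulus and granulosa markers (at GV and MII) lay above the mean of the 9 arrays. The summed linear signal of that list ran from 7160 to 249000 in the GV prepubertal group, 7270 to 383000 in the MII prepubertal group, 6550 to 10400 in the GV adult group and 5620 to 23400 in the MII adult group, with no marker at 0. On GV adult replicate 1, 17 of 20 lay above the mean of the 9 arrays, but its array median of 8.305 was the highest of the 12. Minus the array median, the median of that list was -0.07 there. It was 2.66 on GV prepubertal replicate 1 and 4.9 on MII prepubertal replicate 1. GV adult replicate 1 correlated with no other array above a Spearman value of 0.138. Theca and stroma markers were above that mean for 10, 9 and 9 of 10, and blood markers for 5, 5 and 8 of 9, on GV prepubertal, MII prepubertal and GV adult replicate 1. MII adult replicate 3 kept high oocyte markers but reached at most 0.553, the lowest of the 9.

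**Figure D1:**
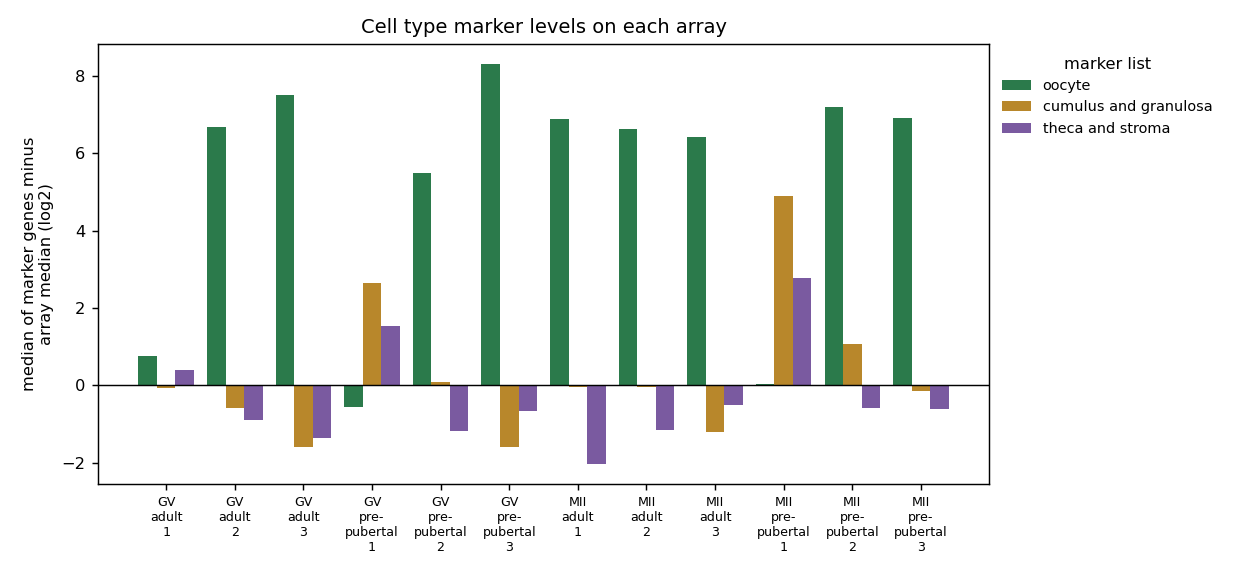
Median log2 signal of 3 lists of marker genes minus the array's median, for each of the 12 arrays (bars; green oocyte, ochre cumulus and granulosa, violet theca and stroma). The green bar is below 1 log2 unit on replicate 1 of GV adult, GV prepubertal and MII prepubertal, and above 5 on the other arrays.

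STAG3 read lower at MII than at GV with its brightest probe set. Its log2 signal in prepubertal donors was 10.36, 13.81 and 12.43 at GV (replicates 1 to 3) and 6.42, 9.53 and 9.15 at MII. The GV and MII values of prepubertal donors did not overlap. Adult pools gave 10.17, 11.22 and 12.00 (GV) and 10.64, 9.78 and 5.96 (MII). There the stages overlapped by 1 GV array, replicate 1, which lacked an oocyte profile, and the lowest MII value lay far below the other 2.

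Over all 12 arrays the MII mean of this probe set was 3.83 log2 units below the GV mean in prepubertal donors (SE 1.35, 14.3-fold) and 2.34 below in adults (SE 1.35, 5.06-fold). Over the 9 arrays with an oocyte profile the differences were -3.78 (SE 1.29) and -2.82 (SE 1.18), and every MII value lay below every GV value at both ages. Of 14409 probe sets above the signal filter, 6.05% showed such a gap in prepubertal donors over 12 arrays; over 9 arrays, with fewer values a group, it was 20.8% in prepubertal donors, 13.1% in adults and 5.22% at both ages. The adult difference rested in part on MII adult replicate 3: without it the value was -0.92 over the other 11 arrays and -1.40 over 8 arrays. With each array centred on its median, which moved the median difference of all probe sets from -0.10 to 0.68 in adults and from -0.29 to 0.62 in prepubertal donors, the 12-array values were -1.55 and -2.93. Within-array percentiles, which do not depend on scaling, ran from 92.2 to 96.3 as group medians at GV and from 80.2 to 82.6 at MII.

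The 3 STAG3 probe sets did not show the same pattern. The second gave 7.53, 8.95 and 6.04 for GV prepubertal pools and 5.03, 6.35 and 3.02 for MII ones, a difference of -2.71 (SE 1.44). Adult pools gave 6.42, 7.11 and 6.33 (GV) and 7.74, 8.02 and 5.44 (MII), a difference of 0.45 (SE 1.44), opposite in sign to the first probe set. The third was dim, with a mean of 4.36, below the filter of 5.57. It read 4.36, 4.90 and 3.77 in GV prepubertal, 2.00, 5.48 and 2.40 in MII prepubertal, 9.06, 2.32 and 2.54 in GV adult and 6.46, 6.61 and 2.38 in MII adult arrays. Its 2 highest MII values and its highest GV value were all in adults, and the highest of all was on GV adult replicate 1. Its adult difference was 0.51 over 12 arrays and 2.72 over the 9 that leave that array out, and its prepubertal one -1.05 and -0.40. The sign of the adult maturation difference of STAG3 thus depended on the probe set, and which transcripts each one detects was not analysed here.

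SPC24 was also lower at MII on most arrays. At GV its signals were 10.46, 11.26 and 11.13 (prepubertal) and 9.30, 10.71 and 11.47 (adult). At MII they were 11.73, 7.73 and 8.77 (prepubertal) and 8.13, 7.95 and 10.47 (adult). On 4 of the 6 MII arrays the signal was below every GV value. The 2 exceptions were MII prepubertal replicate 1, the array with the high cumulus markers and the highest SPC24 value of all 12, and MII adult replicate 3.

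With all 12 arrays the SPC24 mean at MII was 1.54 log2 units below that at GV in prepubertal donors (SE 1.20, 2.91-fold) and 1.64 below in adults (SE 1.20, 3.12-fold), and both pairs of groups overlapped. Over the 9 arrays it was -2.95 (SE 1.13, 7.70-fold) and -2.24 (SE 1.03, 4.73-fold), with every MII value below every GV value at both ages. Such a gap was seen for 20.8% of all probe sets in prepubertal donors, 13.1% in adults and 5.22% at both ages. With median centring the 12-array values were -0.86 in adults and -0.63 in prepubertal donors. The prepubertal difference was -2.70 without MII prepubertal replicate 1 and -0.70 without MII prepubertal replicate 2. Whether cumulus cell RNA on MII prepubertal replicate 1 contributed to its SPC24 signal was not tested. The adult difference was -3.05 over 8 arrays, also without MII adult replicate 3. On that array the first STAG3 probe set had its lowest value of the 12 while SPC24 read higher than on the other 2 adult MII arrays.

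SMC3 kept a high signal through maturation. Its signals in prepubertal pools were 10.95, 11.54 and 12.08 (GV) and 11.72, 12.39 and 12.95 (MII). In adult pools they were 6.31, 13.11 and 12.34 (GV) and 12.63, 12.76 and 12.67 (MII). All values but one thus lay between 10.95 and 13.11, and the low one was on GV adult replicate 1, without an oocyte profile. The residual SD on the 9 arrays was 0.35 log2 units, against 1.91 over 12. The difference between MII and GV in adults was -0.04 (SE 0.56) over 9 arrays, but 2.10 (SE 1.42) over 12. In prepubertal donors it was 0.85 (SE 0.61) over 9 arrays and 0.83 (SE 1.42) over 12. Over the 9 arrays, with 2 a group, the prepubertal stages did not overlap, with MII above GV. The share of all probe sets with MII above GV in that way was not counted. The ages at GV did not overlap either, as for 27.3% of all probe sets.

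Deviations of same-numbered prepubertal pools correlated, so the changes within pairs 1 to 3 are given too. Both arrays of pair 1 lacked an oocyte profile, and a pairing of the pools cannot be told apart from that. From GV to MII the first STAG3 probe set differed by -3.94, -4.29 and -3.27, and the second by -2.51, -2.60 and -3.02. SPC24 differed by 1.27, -3.53 and -2.36, and SMC3 by 0.77, 0.84 and 0.87. The third STAG3 probe set, below the filter, differed by -2.36, 0.58 and -1.37, and SMC1A, also below it, by 2.20, -3.90 and 2.06. The first and second STAG3 probe sets were thus lower at MII in every pair, as were 21% of all probe sets, but the third was not. SMC3 was higher in every pair, as were 12.6%, and SPC24 was lower in 2 of 3.

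SMC1A was dim and variable, with a mean of 4.22 over 12 arrays that put it below the signal filter. At GV its signals were 4.51, 5.68 and 1.33 (prepubertal) and 4.80, 3.57 and 2.64 (adult). At MII they were 6.70, 1.78 and 3.39 (prepubertal) and 3.75, 6.90 and 5.62 (adult). All groups overlapped over 12 arrays. Over the 9, with 2 or 3 arrays a group, MII adult values lay above all MII prepubertal and all GV adult values. The gaps were small, with 3.75 as the lowest MII adult value against 3.39 and 3.57 as the highest of those groups. The share of all probe sets with such gaps was not counted. No detection calls were used, so it is not known on which arrays the gene was detected. The difference between MII and GV was 1.75 in adults and 0.12 in prepubertal donors over 12 arrays, and 2.31 and -0.92 over 9. The age difference at MII was -1.46 over 12 arrays and -2.84 over 9, with no test below the filter.

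**Figure D2:**
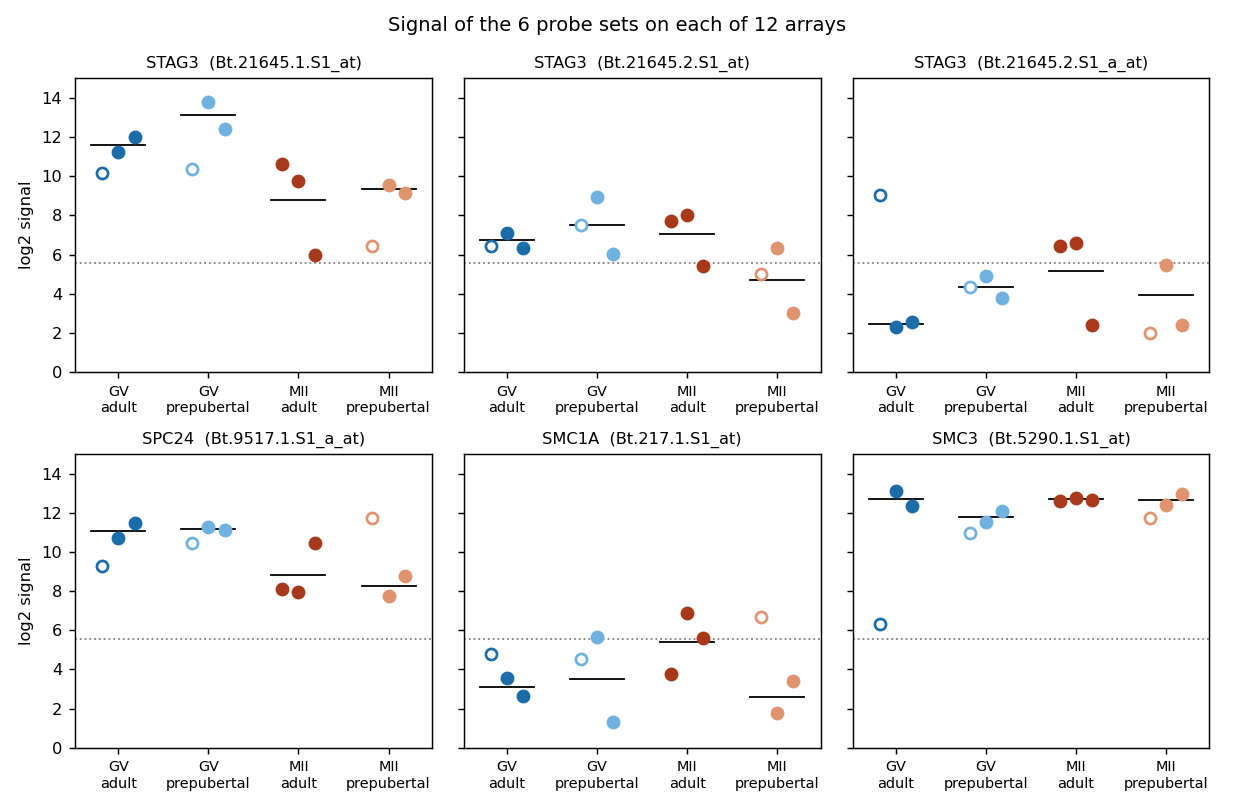
Log2 signal of the 6 probe sets, identified in the panel titles (vertical axis) by group, 1 point per array with replicates 1 to 3 from left to right. Filled points are the 9 arrays with an oocyte profile, open points the other 3; black lines are means of the filled points, and the dotted line is the filter at 5.57. The first STAG3 probe set and SPC24 lie lower at MII in the filled points, SMC3 lies near 12 and SMC1A lies mostly below the filter.

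By group mean over the 9 arrays, the first STAG3 probe set was highest in GV prepubertal oocytes (13.12, SD 0.98, n = 2), then GV adult (11.61, SD 0.55, n = 2), MII prepubertal (9.34, SD 0.26, n = 2) and MII adult (8.79, SD 2.49, n = 3). The 2 GV groups did not overlap with 2 arrays each, as for 27.3% of all probe sets, and overlapped over 12 arrays; the 2 MII groups lay within their spread. SPC24 had the order GV prepubertal (11.20, SD 0.10, n = 2), GV adult (11.09, SD 0.54, n = 2), MII adult (8.85, SD 1.40, n = 3) and MII prepubertal (8.25, SD 0.73, n = 2). For SPC24 the groups of the same stage overlapped. SMC3 had GV adult (12.73, SD 0.54, n = 2), MII adult (12.69, SD 0.07, n = 3) and MII prepubertal (12.67, SD 0.40, n = 2) within 0.1 log2 units, and GV prepubertal (11.81, SD 0.38, n = 2) below them.

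No age difference of these genes passed the threshold at either stage. The comparison, prepubertal minus adult, was tested with limma over all probe sets above the filter, which 4 of the 6 probe sets passed, and adjusted by Benjamini and Hochberg. At GV the first STAG3 probe set differed by 1.07 (95% interval -1.75 to 3.88), the second by 0.89 (-2.13 to 3.90), SPC24 by 0.46 (-2.06 to 2.98) and SMC3 by 0.94 (-2.02 to 3.90), with adjusted p = 1 in limma for each. At MII the differences were -0.43 (-3.24 to 2.39), -2.27 (-5.29 to 0.75), 0.56 (-1.96 to 3.08) and -0.33 (-3.30 to 2.63), again with adjusted p = 1 in limma. Of the 14409 probe sets, 0% passed at GV and 0% at MII, while 2.51% and 2.66% had an unadjusted p under 0.05. None of the 4 member probe sets did. The intervals are wide and do not show that the ages were alike.

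On the 9 arrays the age differences stayed without a call and 3 of the 8 turned in sign. SMC3 read -0.91 at GV (95% interval -2.21 to 0.39), the first STAG3 probe set 0.55 at MII (-1.97 to 3.07) and SPC24 -0.60 at MII (-2.80 to 1.60), all with adjusted p = 1 in limma. Here 0% of probe sets passed at both stages, and 4.64% at GV and 2.56% at MII had an unadjusted p under 0.05. The second STAG3 probe set kept the lowest estimate at MII, at -2.38 (-5.70 to 0.94).

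**Figure D3:**
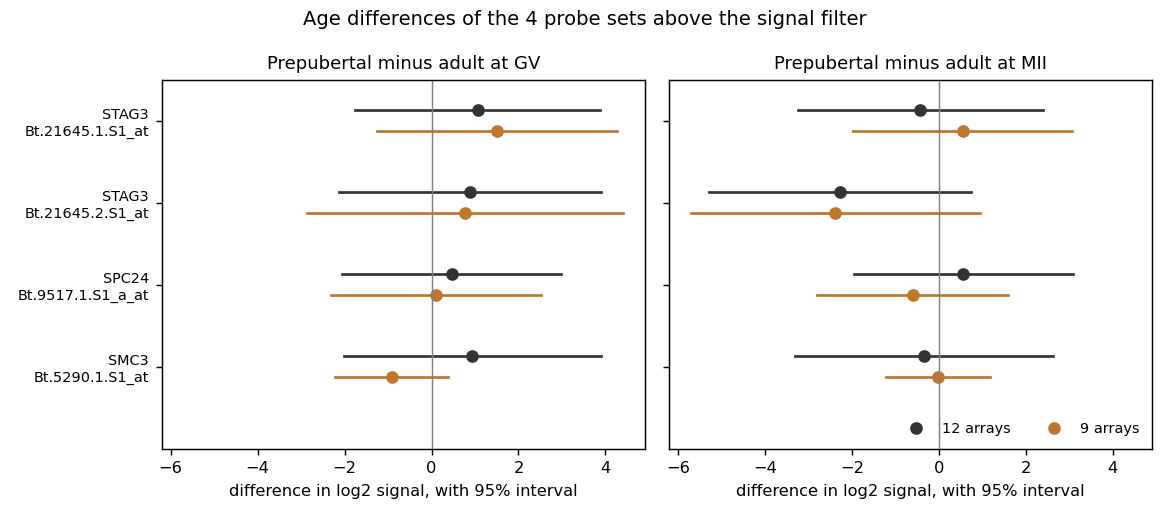
Prepubertal minus adult difference in log2 signal (horizontal axis) with its 95% interval from limma, for the 4 probe sets above the filter, at GV (left) and MII (right). Dark points use 12 arrays and brown points the 9 with an oocyte profile; every interval crosses 0.

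The other genes of the same machinery were taken from 7 lists: cohesin rings, cohesin regulators, condensin and SMC5/6, the outer kinetochore, the inner kinetochore, the spindle checkpoint with the chromosomal passenger complex, and the synaptonemal complex with meiotic recombination. Of 114 listed genes, 60 were matched, and 53 besides the 4 members had a probe set above the filter, 73 probe sets in all. None of the 73 passed the adjusted threshold with maturation at either age over 12 arrays, where 0% of all probe sets passed in adults and 0% in prepubertal donors. Over the 9 arrays also 0 of the 73 passed, against 0.118% of all probe sets in adults and 0% in prepubertal donors. Between the ages, 0 of the 73 passed at either stage over 12 or 9 arrays.

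In adults, values at MII were more often higher than lower among the probe sets of these genes, some genes counting more than once. The share of all probe sets that were higher is not given here, only their median. It was 53 of 73 probe sets over 12 arrays (median 0.89, against -0.10 for all probe sets) and 48 of 73 over 9 arrays (median 0.40, against 0.05). With an unadjusted p under 0.05, 4 were higher and 1 lower over 12 arrays, where 4.08% and 3.85% of all probe sets were; over 9 arrays it was 7 higher and 2 lower, where 6.94% and 4.48% were. In prepubertal donors 35 of 73 were higher over 12 arrays (median -0.07, against -0.29) and 48 over 9 (median 0.41, against -0.14). There 2 were higher and 0 lower with an unadjusted p under 0.05 over 12 arrays, against 1.22% and 2.19% of all probe sets. Over 9 arrays it was 5 higher and 1 lower, against 3.57% and 3.42%.

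The direct partners above the filter included RAD21 and NDC80, and their differences from STAG3 and SPC24 were not tested. RAD21, a kleisin of cohesin, read 12.33 and 12.07 in prepubertal GV replicates 2 and 3 and 12.77 and 12.70 in those at MII. Its adult signals were 12.71 and 12.02 in GV replicates 2 and 3 and 13.11, 12.51 and 12.08 at MII, so that over the 9 arrays its differences were 0.54 (SE 0.62) and 0.20 (SE 0.57). NDC80, the namesake subunit of the complex that holds SPC24, read 9.27 and 12.06 in GV and 11.77 and 10.38 in MII prepubertal replicates 2 and 3. In adults NDC80 read 12.13 and 11.59 in GV replicates 2 and 3 and 10.23, 10.61 and 10.02 at MII, a difference of -1.58 (SE 0.91) over the 9 arrays. Every adult MII value of NDC80 lay below every GV value there, as for 13.1% of all probe sets, while the prepubertal values overlapped. Over 12 arrays the adult difference of NDC80 was 0.35 (SE 1.49), opposite in sign. In prepubertal donors it was 0.41 (SE 1) over 9 arrays and 1.33 (SE 1.49) over 12. DSN1, which links the NDC80 complex to the centromere, read -2.60 (SE 1.11) in adults over the 9 arrays. CENPR, listed as ITGB3BP, read -5.17 (SE 1.62) there with 1 of its probe sets, a dim one (mean 6.38). These were the 2 lower ones in the adult count over 9 arrays. The other ITGB3BP probe set above the filter gave 0.64 (SE 1.56).

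The 7 higher probe sets in that adult count belonged to ESPL1, SMC4, NCAPG, NCAPG2, CENPP and CENPF. ESPL1, the separase that cuts the kleisin, read 9.05 and 9.19 in GV adult replicates 2 and 3 and 12.02, 11.17 and 10.42 in MII adult replicates 1 to 3 with one probe set. Its difference over the 9 arrays was 2.08 (SE 0.83, limma adjusted p = 0.348). With the other probe set it was 3.65 (SE 1.55, limma adjusted p = 0.381). That other probe set read 9.30 and 2.91 in GV adult replicates 2 and 3 and 10.82, 10.52 and 7.93 at MII, so its stages overlapped. The condensin subunit gene NCAPG differed by 1.53 (SE 0.59), and NCAPG2 by 2.37 (SE 1.09) with 1 probe set and -1.25 (SE 1.70) with the other. The centromere gene CENPP differed by 2.72 (SE 1.24). The kinetochore protein gene CENPF differed by 1.51 (SE 0.53) with 1 of its 2 probe sets and by -0.15 (SE 0.61) with the other. The condensin gene SMC4 differed by 4.35 (SE 0.95; limma adjusted p = 0.0905) with 1 of its 3 probe sets, 2.04 (SE 1.07) with another and -0.59 (SE 0.85) with the third. The condensin and SMC5/6 list as a whole had 8 probe sets above 0 and 7 below in adults over 9 arrays. In prepubertal donors the condensin gene NCAPD2 (5.61, SE 2.22), the checkpoint genes ZW10 (3.88, SE 1.59) and BUB1B (2.13, SE 0.88), the passenger complex gene CDCA8 (0.86, SE 0.38) and the recombination gene MSH5 (3.06, SE 1.21) were the 5 higher ones, and the checkpoint gene BUB3 (-5.37, SE 1.94) the lower one, none past the adjusted threshold. The BUB3 value came from a dim probe set (mean 6.04), and the bright one (mean 13.41) gave 0.00 (SE 0.50). The NCAPD2 probe set was also dim (mean 6.18), with 5.15 and 1.56 in GV prepubertal replicates 2 and 3. The other CDCA8 probe set gave 0.34 (SE 1.07).

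**Figure D4:**
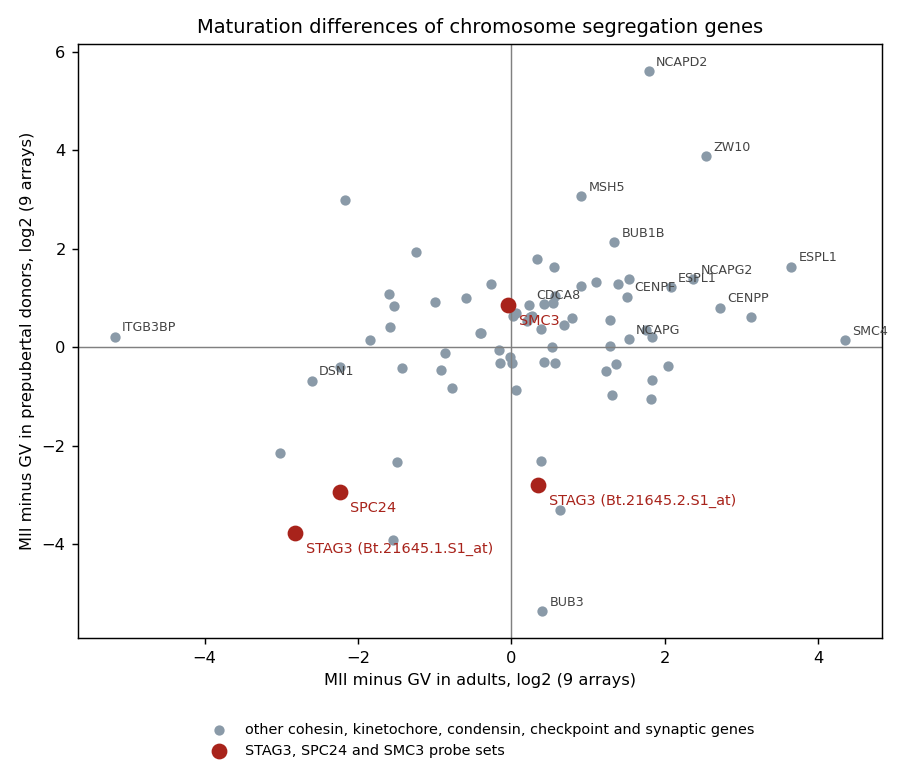
Difference in log2 signal between MII and GV over the 9 arrays, in adults (horizontal axis) and prepubertal donors (vertical axis), for 73 probe sets of the 7 lists (grey) and the 4 member probe sets above the filter (red). Named grey points had an unadjusted p under 0.05 at either age. The first STAG3 probe set and SPC24 lie lower left, SMC3 near 0 in adults, and the second STAG3 probe set below 0 only in prepubertal donors.

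Pearson's r with the first STAG3 probe set over the 9 arrays was taken for the 14409 probe sets above the filter. Those without a single gene symbol, or named after a clone or accession, were passed over, here and for SPC24. Of the rest, the most similar gene was SRP9 (0.975), a subunit of the signal recognition particle. Next came the nuclear receptor gene NR2F1 (0.967), the riboflavin kinase gene RFK (0.957), PHLDA2 (0.956) and LRRC8E (0.95). Over 12 arrays the r of these genes, SRP9 first, was 0.687, 0.330, 0.477, 0.911 and 0.872. For SPC24 they were TBRG4 (0.965), POLE4 (0.964), which encodes a subunit of DNA polymerase epsilon, the tubulin gene TUBB2B (0.946), ZNF593 (0.936) and MPDU1 (0.931), with r of 0.894, 0.757, 0.596, 0.900 and 0.805 over 12 arrays. These are the highest of many values for named genes, over few arrays that share scaling and stage, and are a description. POLE4 read 12.15, 11.90, 11.14 and 10.60 on the 4 MII arrays on which SPC24 was low, 15.21 on MII prepubertal replicate 1 and 14.40 on MII adult replicate 3. PHLDA2 had its lowest values on MII prepubertal replicate 1 (2.78) and MII adult replicate 3 (3.14), the 2 MII arrays on which the first STAG3 probe set was lowest. STAG3 and SPC24 themselves had an r of 0.424 over 9 arrays and 0.131 over 12.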

How the data were processed

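The values are log2 signals per probe set of 12 arrays as deposited by the authors; MAS5 is named for them per the submitters' processing notes, with its version not given in the sources used here. The 2% trimmed mean of the linear values was 500 to 500.3 on all arrays, and no further scaling was applied. The values lay between 0 and 21.83. The number of arrays limits the precision. From the 24128 rows, 112 controls were left out, and probe sets with a mean over 12 arrays above the 40th percentile (5.57) were kept, which left 14409. Of the probe sets, 13292 carried a single symbol, 86 several and 10638 none; 99.8% of the single ones were found in a table of cattle genes by Entrez identifier.

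Group means were fitted with limma 3.58.1 (R 4.3.3) across all kept probe sets with an intensity trend, in 1 fit with 8 residual degrees of freedom (5 over the 9 arrays), with Benjamini-Hochberg adjustment and a threshold of 0.05. The script was tested on simulated data. Arrays had an oocyte profile if the median of the oocyte markers lay over 2 log2 units above the array's median. The members, lists, tests and the fits over 9 and 8 arrays were chosen with earlier results of these data known. Alternatives were quantile normalization, median centring, no filter, a 60th percentile filter, 32 added to the linear signal, a fit of 2 groups at a time, a block for the replicate number, a covariate for the letter b of some titles, a variance prior without trend, an unadjusted threshold with a 2-fold change, and leaving out each array. Named genes were the members and list genes with an unadjusted p under 0.05 or bound directly to a member. Also named were the 5 genes with a single symbol nearest in pattern to STAG3 and to SPC24, clone and accession names passed over. Deviations from the group means of same-numbered arrays correlated at 0.609, 0.149 and 0.306 between the prepubertal stages, all over the bound of 0.1. No label states a pairing. Replicate 1 lacked an oocyte profile at both prepubertal stages, and deviations within a group offset one another. The check therefore cannot tell a pairing of pools from that shared profile, and the changes within same-numbered pools are a description. In the other comparisons at least 1 correlation was under the bound.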

Additional observations from a re-analysis of the deposited data

How the results depend on the processing

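Of the 19 alternatives run for each member, 5 (both other filters, only the compared groups, the replicate block and no intensity trend) leave a difference of means as it is by construction. In the other 14, the maturation differences by which STAG3 and SPC24 were chosen ranged from -4.75 to -0.92 for the first STAG3 probe set and from -3.13 to -0.63 for SPC24, as a description. No member's age difference passed the threshold under any of the 19. Of 228 age values under an alternative 27 had the opposite sign, and of 228 maturation values 20, the latter for SMC1A, SMC3 and the other 2 STAG3 probe sets. Each total of 228 includes the values of the 5 settings that cannot change a sign. With the replicate block no age difference of a member passed the threshold, and over all probe sets it gave 7 calls for adult maturation against 0. Adult maturation gave 17 calls over the 9 arrays, 16 with these quantile normalized and 69 over 8 arrays, where prepubertal maturation gave 5. Calling by unadjusted p under 0.05 and a change of at least 2-fold gave 362 and 383 calls for age at GV and MII, and 1143 and 492 for maturation in adults and prepubertal donors. On the 9 arrays, then with quantile normalization, then with median centring, the MII age difference of the first STAG3 probe set was 0.55, 0.56 and 0.92, that of SPC24 -0.60, -0.65 and -0.23, and the GV age difference of SMC3 -0.91, -0.68 and -1.24 (-0.91 over 8 arrays). SPC24 was -0.22 at GV with median centring, and SMC3 0.02 and 0.35 at MII with the 2 scalings. With maturation, SPC24 in prepubertal donors was -2.95 over 9 and over 8 arrays and -3.13 with quantile normalization, and in adults -3.05 over 8. SMC3 in adults was -0.04, 0.12 and 0.06 over 9 arrays and -0.03 over 8, and in prepubertal donors 1.73 with median centring, -0.33 with the letter b as a covariate and 1.66 over 9 centred arrays. The third STAG3 probe set, in prepubertal donors, was 0.29 with quantile normalization and with the letter b, and 0.68 and 0.40 over the 9 arrays with each scaling. It was 1.90 for age at GV over 9 and 8 arrays and 4.10 in adults over 8, and SMC1A in adults was 3.52 with the letter b. Leaving out 1 array at a time gave, for age at GV, -0.14 to 0.95 for SPC24, -1.20 to 2.20 for SMC3 and -1.46 to 1.91 for the third STAG3 probe set. For age at MII it gave -1.84 to 0.55 for the first STAG3 probe set and -0.60 to 1.40 for SPC24, and for SMC3 in adult maturation -0.04 to 3.36. The sign changes of SPC24 and SMC3 at GV came without GV adult replicate 1, those at MII without MII prepubertal replicate 1 and, for STAG3, also without MII adult replicate 1 or 2. The causes were not tested. The fits over 9 and 8 arrays were chosen after seeing the data. SMC1A and the third STAG3 probe set lay below the filter, so they had no test in the main comparison, and with no filter their age differences had adjusted p = 1 in limma.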

Other observations

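The 3 probe sets of SMC4, a core subunit of condensin, did not run together. Over the 9 arrays with an oocyte profile, prepubertal GV values differed from adult ones by 3.33 (SE 1.04) with 1 probe set and by -2.74 (SE 0.93) with another, both with adjusted p = 0.997 in limma. The first read 9.86 and 10.24 in GV prepubertal replicates 2 and 3 and 7.12 and 6.32 in the GV adult ones. The second read 11.44 and 8.48 against 13.39 and 12.01. Which transcript ends of SMC4 they detect was not analysed here.

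Shugoshin 1 protects centromeric cohesin from separase, and its gene SGO1 was low on the 3 arrays without an oocyte profile, at 5.26 on GV prepubertal replicate 1, 7.34 on GV adult replicate 1 and 2.91 on MII prepubertal replicate 1. On the other 9 arrays SGO1 read between 9.07 and 11.51. SYCP3, a lateral element of the synaptonemal complex, showed the same division with both of its probe sets. One gave 6.82, 7.49 and 6.76 on those 3 arrays and 11.99 to 13.82 on the 9, and the other 7.64, 9.89 and 7.28 against 10.73 to 12.95. These genes were picked after their values were seen, and the division was not particular to them. One CDCA8 probe set gave 9.72, 10.01 and 9.41 on GV prepubertal, GV adult and MII prepubertal replicate 1, against 14.78 to 17.01 on the 9. SKA1 gave 4.54, 9.93 and 7.93 against 12.98 to 13.75. The share of all probe sets with such a division was not counted.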
